A study of Mus musculus with 8 samples.

Results

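Alcam, Id3, Ly6g5b, Mns1 and Ttc39c are 5 of the 39527 genes measured in group 2 innate lymphoid cells (ILC2s) of mouse visceral fat. They were picked by name, outside any pathway, because their level was clearly higher in ILC2s of mice on a high-fat diet than on a normal diet. The values that picked them are therefore the diet difference itself, which is given below as a description without a test. All 5 passed the filter on low values, at which 11483 genes were tested. The series concerns the kinase LKB1 and mitochondria in adipose ILC2s. Its libraries come from male wild-type C57BL/6 mice aged 14 weeks, whose epididymal visceral adipose tissue was the source of the sorted cells. Mice of the high-fat group (libraries H1 to H4) ate a high-fat diet, and those of the normal-diet group (N1 to N4) a normal diet, each for 8 weeks from the age of 6 weeks. No allele or agent other than the diet separates the groups. The labels do not say whether a library is 1 mouse or a pool, nor whether the 4 libraries of a diet come from separate animals, so p-values measure only the spread between these libraries.

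ILC2s are tissue-resident lymphocytes without rearranged antigen receptors that respond to alarmins such as interleukin-33 and secrete type 2 cytokines, and in fat they help to sustain eosinophils and metabolic balance. The 5 genes belong to unrelated families. Alcam (CD166) is an adhesion molecule of the immunoglobulin superfamily that binds CD6 on T cells and also binds itself on neighbouring cells. Id3 is an inhibitor of DNA binding: it pairs with E proteins, basic helix-loop-helix (HLH) transcription factors that bind E-box sequences, and keeps them off DNA. In many cells Id genes are targets of bone morphogenetic protein (BMP) and TGF-beta signalling through Smad proteins. Ly6g5b encodes a member of the Ly6 and uPAR family of small cysteine-rich proteins and lies in the class III region of the major histocompatibility complex (MHC). Mns1 is a coiled-coil protein of the axoneme, the microtubule core of motile cilia and sperm tails. Ttc39c carries tetratricopeptide repeats, a motif that binds other proteins.

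In the mouse build mm10 with GENCODE M21 annotation, Alcam spans chr16:52248996-52454074 on the minus strand and Id3 spans chr4:136143497-136145755 on the plus strand. Ly6g5b spans chr17:35113948-35115428 (minus strand) and Mns1 chr9:72438011-72462025 (plus strand).

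The promoters are shown because the 5 genes were picked for moving the same way, so a reader may ask what sequence they have upstream. RefSeq promoter windows of the same build (GRCm38.p6) were found for 4 of the 5 genes, with 2 start sites for Ly6g5b. Each sequence is the 250 bases before the RefSeq start, 5′ to 3′ on the gene's own strand. The windows of Alcam, Id3 and Mns1 lie inside the GENCODE spans given above. They are upstream of the RefSeq start but downstream of the GENCODE start. They are chr16:52453082-52453331 (minus strand) for Alcam, chr4:136143572-136143821 (plus) for Id3, chr17:35115510-35115759 (minus) for the Ly6g5b start nearer the GENCODE gene, chr17:35118559-35118808 (minus) for the Ly6g5b start farther upstream, and chr9:72438279-72438528 (plus) for Mns1. Capitals mark matches, on either strand, to the 7 motifs spelled out after the sequences.
Alcam: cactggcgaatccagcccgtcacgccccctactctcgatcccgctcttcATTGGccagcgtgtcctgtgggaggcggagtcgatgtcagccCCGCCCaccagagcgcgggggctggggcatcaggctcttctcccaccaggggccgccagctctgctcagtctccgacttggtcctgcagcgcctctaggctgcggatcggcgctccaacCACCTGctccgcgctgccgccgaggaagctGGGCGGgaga
Id3: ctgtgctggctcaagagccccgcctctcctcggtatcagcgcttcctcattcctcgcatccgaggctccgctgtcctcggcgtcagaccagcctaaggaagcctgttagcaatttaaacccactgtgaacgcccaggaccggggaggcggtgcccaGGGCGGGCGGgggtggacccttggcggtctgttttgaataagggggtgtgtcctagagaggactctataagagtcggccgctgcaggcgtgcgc
Ly6g5b, nearer start: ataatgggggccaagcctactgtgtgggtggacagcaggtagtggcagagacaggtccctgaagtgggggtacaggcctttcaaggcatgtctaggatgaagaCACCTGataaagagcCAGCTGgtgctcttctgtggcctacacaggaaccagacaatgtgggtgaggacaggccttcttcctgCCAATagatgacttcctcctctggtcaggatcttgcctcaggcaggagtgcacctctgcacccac
Ly6g5b, farther start: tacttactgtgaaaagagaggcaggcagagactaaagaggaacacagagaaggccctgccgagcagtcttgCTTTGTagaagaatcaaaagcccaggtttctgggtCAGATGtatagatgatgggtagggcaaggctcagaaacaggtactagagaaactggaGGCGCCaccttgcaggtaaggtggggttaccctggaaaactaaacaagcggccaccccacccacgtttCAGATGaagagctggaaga
Mns1: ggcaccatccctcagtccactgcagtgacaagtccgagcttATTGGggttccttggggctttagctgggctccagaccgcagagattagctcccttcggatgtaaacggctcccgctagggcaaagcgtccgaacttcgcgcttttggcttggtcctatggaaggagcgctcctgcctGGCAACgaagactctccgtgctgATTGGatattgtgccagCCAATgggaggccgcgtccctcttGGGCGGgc

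Motifs searched were the E-box CANNTG, the GC box GGGCGG, the CCAAT box CCAAT, the RFX half-site GTTGCC, the TCF/LEF core ACAAAG, a GC-rich Smad and BMP site GGCGCC and the TATA box TATAAA. The RFX half-site belongs to factors of ciliary genes, and the TCF/LEF core to the factors Tcf7 and Lef1. The Alcam window held 1 E-box (CACCTG, 40 bases before the start), 2 GC boxes and 1 CCAAT box. In the Id3 window only 2 GC boxes were found, 94 and 90 bases before the start, and they overlap. The nearer Ly6g5b window held 2 E-boxes and 1 CCAAT box, and the farther one 2 E-boxes, 1 TCF/LEF core and 1 GGCGCC. For Mns1 there were 3 CCAAT boxes, 1 GC box and 1 RFX half-site, the last 72 bases before the start. No motif was found in all 5 windows. Among 32841 mouse promoter windows of the same length, 66.2% held an E-box, 32.75% a GC box, 33.9% a CCAAT box and 10.4% the RFX half-site. The shares were 16.5% for the TCF/LEF core, 9.59% for GGCGCC and 12.4% for the TATA box. Base composition differed between the windows: GC content was 69.2% for Alcam, 62.8% for Id3 and 59.6% for Mns1, with 22, 18 and 15 CpG dinucleotides. The nearer Ly6g5b window had 55.6% GC and no CpG, and the farther one 50.4% GC and 4 CpGs, against a median over all windows of 52.4% and 6. These are matches of letters and carry no measurement of binding.

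RNA was read from full-length cDNA, and values are FPKM, a level per unit of gene length and of sequencing depth. In this file they also carry a factor of 0.863 to 1.18 that repeats down the rows and differs between libraries for the same gene. Small differences in level between genes or libraries are therefore not read. Orders of libraries given below in FPKM include this factor. Depth, as whole reads recovered from the values, was 9005363 to 15752815 per library. The reads of a gene are the smallest whole numbers that its values allow. H2 stands apart with the fewest reads and the most genes at 1 FPKM or more (13663, against 10763 to 11905 in the others). All 13 ILC2 markers were tested, among them Gata3, Il1rl1, Rora and Klrg1, and all were expressed, with a summed level of 7071 to 7987 FPKM on high-fat and 8722 to 10620 FPKM on normal diet. Of these 3 were lower on high-fat diet: Gata3, Il2ra and Il5 (log2 differences -0.59, -0.72 and -2.06, adjusted p 0.0449, 0.0152 and 7.63e-05, limma with Benjamini-Hochberg adjustment). The call for Gata3 was lost in 12 of 17 settings, among them without each library except N3 (up to 0.115), and that for Il2ra without H3 (0.0711) or N1 (0.0523). In bulk RNA, a different share of cells of a type and a different amount of RNA per cell cannot be told apart.

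Of all tested genes 0.975% were called higher on high-fat diet by limma (112 genes), 1.88% lower (216) and 2.86% either way. These shares stand beside every count of called genes given here for a list of genes or markers. Quantile normalization gave 226 higher and 204 lower. The call count depends on single libraries: it was 200 without H1, 536 without H2, 129 without H3, 129 without H4, 182 without N1 and 176 without N2. In 4.31% of tested genes (495) all high-fat libraries lay above all normal-diet libraries, and in 6.76% all lay below (11.1% either way). All 5 genes fall in both the higher-called and the non-overlapping class, which is what picked them. By the ratio of the lowest high-fat to the highest normal-diet value, a ratio of at least 1.4 was met by 76 tested genes, and the 5 stood at ranks 18 (Id3), 25 (Alcam), 39 (Mns1), 41 (Ly6g5b) and 60 (Ttc39c). They are therefore a selection from a longer series of such genes and not its top.

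**Figure D1:**
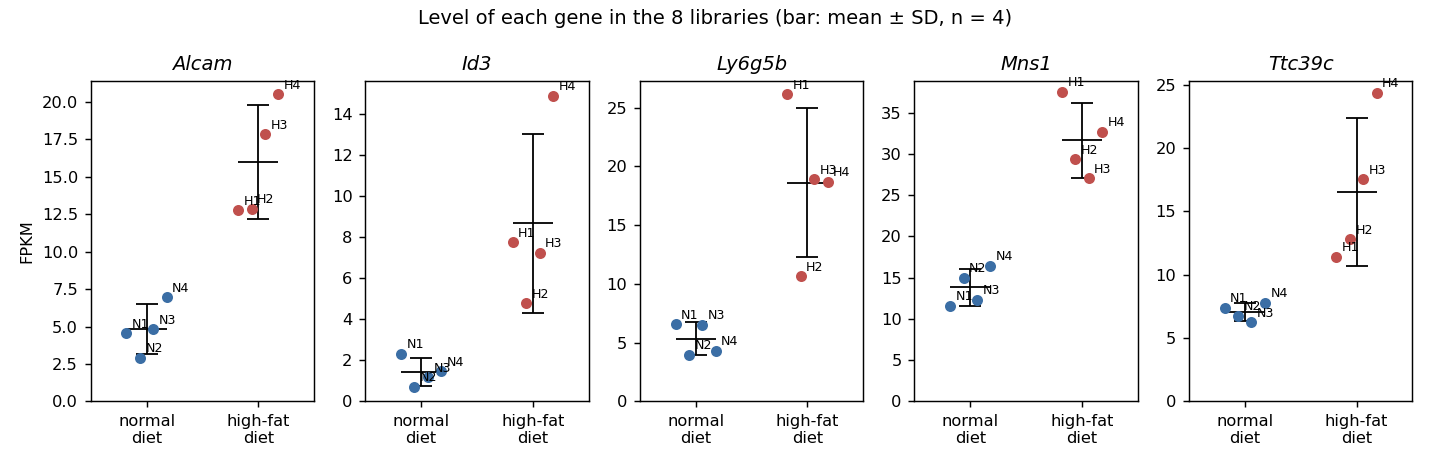
FPKM of Alcam, Id3, Ly6g5b, Mns1 and Ttc39c in each of the 8 libraries, with a linear vertical axis from 0 in each panel; points are libraries and bars are the mean ± SD of 4 libraries per diet. In every panel all high-fat points lie above all normal-diet points; the smallest gap is in Ttc39c, 11.4 FPKM in H1 over 7.79 FPKM in N4.

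Alcam, the adhesion molecule, was at 12.75, 12.9, 17.8 and 20.5 FPKM in H1 to H4 and at 4.54, 2.92, 4.84 and 6.96 FPKM in N1 to N4. H1 and H2 were alike, H3 and H4 were higher, and the lowest high-fat library was 1.83 times the highest normal-diet library. Means were 16.0 ± 3.84 and 4.81 ± 1.66 FPKM (SD, n = 4 each), a ratio of 3.32. The log2 difference of FPKM + 1 was 1.565 with an SE of 0.22. Alcam thus moved from percentile 34.7 to percentile 62.55 of mean level among tested genes. The values rest on 155 reads in N2 to 971 in H4. The exact Poisson 95% intervals of the closest libraries, 6.26 to 7.72 FPKM in N4 and 11.8 to 13.8 FPKM in H1, did not overlap. They cover counting error only, and the choice of Alcam for its rise favours the gap, so nothing is read from it about the diets.

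Id3, the E protein inhibitor, had the largest difference of the 5 and the fewest reads. It was at 7.75, 4.80, 7.25 and 14.9 FPKM in H1 to H4. The normal-diet libraries were at 2.33, 0.707, 1.18 and 1.475 FPKM. H4 was the highest library by a wide margin, at more than the sum of H2 and H3, while H2, the lowest of its diet, was still 2.06 times N1, the highest normal-diet library. Means were 8.68 ± 4.35 and 1.42 ± 0.682 FPKM (SD, n = 4 each), a ratio of 6.09, and the log2 difference was 1.94 (SE 0.29). Reads were few: 91, 39, 86 and 189 on high-fat diet and 23, 8, 14 and 18 on normal diet. The 95% interval, which covers counting error only, ran from 0.305 to 1.39 FPKM in N2, from 1.48 to 3.496 FPKM in N1 and from 3.41 to 6.56 FPKM in H2. The intervals of N1 and H2, the closest libraries of the 2 diets, overlap. On normal diet Id3 sat near the bottom of the tested genes (percentile 9.88 of mean level), and on high-fat diet near the middle (47.7).

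Ly6g5b was at 26.15, 10.65, 18.9 and 18.7 FPKM in H1 to H4 and at 6.55, 3.975, 6.51 and 4.31 FPKM in N1 to N4. Here H1 was the highest library and H2 the lowest of its diet, 1.63 times the highest normal-diet library. Means were 18.6 ± 6.33 and 5.34 ± 1.39 FPKM (SD, n = 4 each), a ratio of 3.48, with a log2 difference of 1.59 (SE 0.24). The reads behind them were 44 in N2 to 386 in H1.

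Mns1, the axonemal protein, had the highest level of the 5. It was at 37.5, 29.3, 27.05 and 32.7 FPKM in H1 to H4 and at 11.6, 15.0, 12.3 and 16.4 FPKM in N1 to N4. On high-fat diet its libraries were the most even of the 5: the highest was 1.39 times the lowest, against 1.42 times on normal diet, where those of Ttc39c were closer (1.25 times). The lowest high-fat library, H3, was 1.65 times the highest normal-diet one. Means were 31.65 ± 4.55 and 13.8 ± 2.26 FPKM (SD, n = 4 each), a ratio of 2.29, and the log2 difference was 1.14 (SE 0.16).

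Ttc39c, the tetratricopeptide repeat protein, is encoded on the plus strand at chr18:12599896-12738863 in mm10. It was at 11.4, 12.8, 17.5 and 24.4 FPKM in H1 to H4 and at 7.40, 6.78, 6.235 and 7.79 FPKM in N1 to N4. The normal-diet libraries lay close together and the high-fat ones were spread, H4 at 2.13 times H1. Means were 16.5 ± 5.85 and 7.05 ± 0.686 FPKM (SD, n = 4 each), a ratio of 2.34, and the log2 difference was 1.07 (SE 0.20). The gap between the groups was the narrowest of the 5, at 1.47 times.

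By mean FPKM the order on high-fat diet was Mns1, Ly6g5b, Ttc39c, Alcam and Id3. Ly6g5b, Ttc39c and Alcam had overlapping libraries there and did not differ beyond their spread. On normal diet the order was Mns1, Ttc39c, Ly6g5b, Alcam and Id3, and again Ttc39c, Ly6g5b and Alcam had overlapping libraries. Without H2 and N2, the pair of libraries that carried many of the low values, the log2 differences were 1.48 (Alcam), 1.999 (Id3), 1.71 (Ly6g5b), 1.21 (Mns1) and 1.15 (Ttc39c). Without H4 they were 1.44, 1.67, 1.57, 1.12 and 0.87.

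Spread around each diet mean differed among the 5. A small spread favoured being picked, so it is given as a description. The SD of log2(FPKM + 1) within diets was 0.37 for Alcam, 0.51 for Id3, 0.42 for Ly6g5b, 0.21 for Mns1 and 0.34 for Ttc39c, against a median of 0.26 over all tested genes. H4 was the highest high-fat library for Alcam, Id3 and Ttc39c (0.37, 0.82 and 0.59 above the diet mean in log2 units). H1 was the highest for Ly6g5b and Mns1 (0.53 and 0.25 above). H2 was below its diet mean in all 5, by as much as 0.69 in Ly6g5b and 0.64 in Id3. Among normal-diet libraries N2 was the lowest for Alcam, Id3 and Ly6g5b but above the mean for Mns1. In FPKM the 5 genes thus share the diet difference without sharing 1 order of libraries. The row factor enters these orders, and for Alcam H3 was above H4 in reads scaled to depth.

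Genes whose within-diet deviations were most like those of each gene were found over the 8 libraries. These correlations are descriptions over libraries of differing depth, in FPKM that include the row factor. The named genes are the extremes of 11483. For Alcam they were Dcaf6 (Pearson r 0.98, Spearman rho 0.95), Meaf6 (0.97, 0.98) and Kifc2 (0.96, 0.905), with Trmt13 first by rank (1.0). For Id3 they were Naip5 (0.98, 0.93), Desi1 (0.97, 0.83) and Git2 (0.97, 0.98), with Klhl7 (1.0) and Use1 (0.98) first by rank. The genes most like Ly6g5b were Rcan1 (0.975, 0.95), Pomt1 (0.97, 0.93) and Gabbr1 (0.97, 0.905), and by rank Gem (1.0) and Kpna6 (0.98). Cops5 (0.97, 0.905), R3hdm4 (0.95, 0.86) and Nkap (0.94, 0.905) were most like Mns1, and by rank Echs1 and Pcnxl4 (0.95 each). Dgcr8 (0.965, 0.93) and Tpcn2 (0.96, 0.95) were among those most like Ttc39c, and by rank Dcp1a and Slc43a3 (0.98 each). Of these genes Klhl7 was called higher on high-fat diet by limma (log2 difference 0.63, Benjamini-Hochberg adjusted p 0.0449), and the others were not called. The call for Klhl7 was lost in 11 of 17 settings, among them without each library except H2 (up to 0.137). Between 21 (Ttc39c) and 44 (Ly6g5b) genes had an r above 0.9 with each of the 5.

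Around Alcam, genes for its ligand, its relatives, the linkers to its tail and its sheddases were examined as a list of 12, of which 10 were tested. None was called higher and 1 was lower (all tested genes: 0.975% and 1.88%), with a median log2 difference of 0.15 (all tested genes: -0.02). In a list this short such counts are not read as a result. Cd9, a tetraspanin that associates with ALCAM and its sheddase, was at 12.1, 10.4, 11.5 and 14.2 FPKM in H1 to H4 and at 16.3, 17.9, 20.4 and 19.7 FPKM in N1 to N4, with no overlap. It fell by 0.59 on the log2 scale (SE 0.15, adjusted p 0.0459, limma with Benjamini-Hochberg adjustment). Its adjusted p was above 0.05 in 12 of 17 other settings, each left-out library among them (up to 0.133). Cd6, the receptor of ALCAM, had a log2 difference of 0.82 (SE 0.72, adjusted p 0.62), and its libraries overlapped widely: 10.4, 6.05, 10.2 and 24.8 FPKM on high-fat diet and 3.28, 1.99, 6.705 and 23.5 FPKM on normal diet. The sheddases Adam10 and Adam17 (-0.14 and 0.27, adjusted p 0.655 and 0.482) and the linker Ezr (0.04, adjusted p 0.931) were not called. Cd6 and its relative Cd5 are T cell markers too.

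For Id3, the other Id and HLH genes were examined as a list of 12. Of these 8 were tested and 0 called, with a median log2 difference of -0.05. The called share of all tested genes was 2.86%, so 0 calls in a list this short are not read as a result. At an adjusted p of 0.277 and 0.282 by limma, Id1 and Id2 had log2 differences of 0.56 (SE 0.26) and -0.36 (SE 0.17). Id2, which ILC2s need for their development, was the dominant Id gene: it was at 2618, 2191, 1974 and 2004 FPKM in H1 to H4 and at 3655, 2819, 2177 and 2719 FPKM in N1 to N4. Id3 therefore amounted to only 0.296%, 0.219%, 0.367% and 0.744% of the Id2 level in H1 to H4. In N1 to N4 it amounted to 0.0638%, 0.0251%, 0.0543% and 0.05425% of it. The share was higher in every high-fat library, yet under 1% in all 8 libraries. The E proteins Tcf3, Tcf4 and Tcf12, the partners that Id proteins hold, had log2 differences of -0.16, 0.18 and -0.14 (adjusted p 0.658, 0.609 and 0.724). The repressors Hes1, Hey1 and Bhlhe40 had differences of 0.23, -0.34 and 0.04 (adjusted p 0.733, 0.495 and 0.925). The sign for Bhlhe40 turned without H3, H4 or N3, and that for Tcf12 without H2 and N2. Id4, Lyl1, Tal1 and Bhlhe41 were under the filter.

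Among 36 genes of TGF-beta and BMP signalling, 27 were tested. Of these 0 were higher and 2 lower (all tested genes: 0.975% and 1.88%), with a median log2 difference of -0.10. Bmpr1b, a type I BMP receptor, was at 1.56, 1.05, 0.495 and 0.605 FPKM in H1 to H4 and at 4.15, 2.21, 3.84 and 2.40 FPKM in N1 to N4. Smad3, which carries TGF-beta signals to the nucleus, was at 35.3, 45.7, 36.8 and 39.2 FPKM in H1 to H4 and at 80.6, 67.75, 62.9 and 61.2 FPKM in N1 to N4. The diets did not overlap for either gene. Bmpr1b fell by 1.11 (SE 0.24, adjusted p 0.0243) and Smad3 by 0.78 (SE 0.15, adjusted p 0.0112) on the log2 scale in limma. The call for Bmpr1b was lost in 6 of 16 settings, among them without H3, H4, N1 or N3 (adjusted p up to 0.0896), and that for Smad3 without H3 (0.0511) and with the replicate number as a block (0.0504). On high-fat diet only H1 and H2 reached 1 FPKM for Bmpr1b. Bmpr1b thus met the filter through its normal-diet libraries, and its call supports nothing. Whether this signalling has a part in the Id3 difference was not tested.

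A list of stem-like and naive lymphocyte genes, which in T cells often includes Id3, had 17 of 19 members tested. Of these 2 were higher and 2 lower (all tested genes: 0.975% and 1.88%), with a median of 0.03. Of the 2 higher genes, Slamf6 passed the filter only through its high-fat libraries, so its call is counted here and supports nothing. Tcf7, the transcription factor TCF-1, was at 22.7, 23.5, 26.35 and 33.1 FPKM in H1 to H4 and at 11.5, 13.2, 12.2 and 8.79 FPKM in N1 to N4. It rose by 1.14 on the log2 scale (SE 0.17, adjusted p 0.00296), and this call held in all 17 settings. Slamf6, a surface receptor of the SLAM family, was low: 1.55, 3.16, 2.49 and 1.23 FPKM on high-fat diet and 0.498, 0.135, 0.681 and 0.165 FPKM on normal diet. Its log2 difference was 1.16 (SE 0.26), given as a description. Foxo1, a factor of quiescence and homing, fell by 0.82 (SE 0.15, adjusted p 0.0104), from 15.2 ± 1.67 to 8.21 ± 1.19 FPKM (SD, n = 4 each), and this call held in all 17 settings. The genome organizer Satb1, named after its values were seen, fell by 0.80 (SE 0.16, adjusted p 0.0154), a call lost in 5 of 17 settings, 4 of them with 1 library left out (N1, N2, H3 or H4; at most 0.0604). Lef1, the relative of Tcf7, had a difference of 0.31 (adjusted p 0.438). The list therefore did not move as 1 group.

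For Ly6g5b, the Ly6 and uPAR family was examined with 33 names, of which 29 were in the table and 6 passed the filter. None was higher and 1 was lower (all tested genes: 0.975% and 1.88%), and the median log2 difference was -0.39. With so few members tested these counts are not read as a result. Plaur, the urokinase receptor, was at 346.6, 435.7, 334.4 and 284.5 FPKM in H1 to H4 and at 683.1, 917.6, 638.5 and 676.9 FPKM in N1 to N4. It fell by 1.06 (SE 0.17, adjusted p 0.00441, limma with Benjamini-Hochberg adjustment), and the call held in all 17 settings. Ly6a (Sca-1) had a log2 difference of -0.49 (SE 0.21, adjusted p 0.23) and Ly6e, the most abundant member, -0.29 (SE 0.17, adjusted p 0.394). Ly6g5c, a family member in the same MHC region, was under the filter. Of the 6 tested members 5 had a difference below 0, and Ly6d, at 0 to 3.10 FPKM, had 0.41 (SE 0.37, adjusted p 0.613).

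For Mns1, 50 of 56 listed axoneme and motile cilia genes were in the table and 15 passed the filter. None of the 15 was called, and their median log2 difference was 0.07. Since 2.86% of all tested genes were called, the absence of calls among 15 is not read as a result. Cfap20 and Dnaaf2, the most abundant of them, had differences of -0.24 (adjusted p 0.382) and 0.09 (adjusted p 0.853), the latter with its sign turned without H3 or N1. The ciliary regulators Rfx2 and Rfx3 had differences of -0.11 each (adjusted p 0.838 and 0.846). Foxj1, the master regulator of motile cilia, most dynein arm genes (Dnah5, Dnah9, Dnah11, Dnaic1, Dnaic2) and the tektins Tekt1 to Tekt4 were under the filter in these cells. In all, 33 listed cilia genes were under the filter, in the libraries where Mns1 reached 37.5 FPKM. For Ttc39c, the relatives Ttc39a and Ttc39d were under the filter, and Ttc39b had a difference of 0.34 (SE 0.17, adjusted p 0.303). Ttc39b was called under quantile normalization (0.48, adjusted p 0.033) and without H2 and N2 (0.54, adjusted p 0.039). Ttc39c was at 10.8%, 20.35%, 19.0% and 24.3% of the Ttc39b level in H1 to H4 and at 11.05%, 8.92%, 9.19% and 11.3% in N1 to N4, so that on this ratio H1 lay among the normal-diet libraries.

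**Figure D2:**
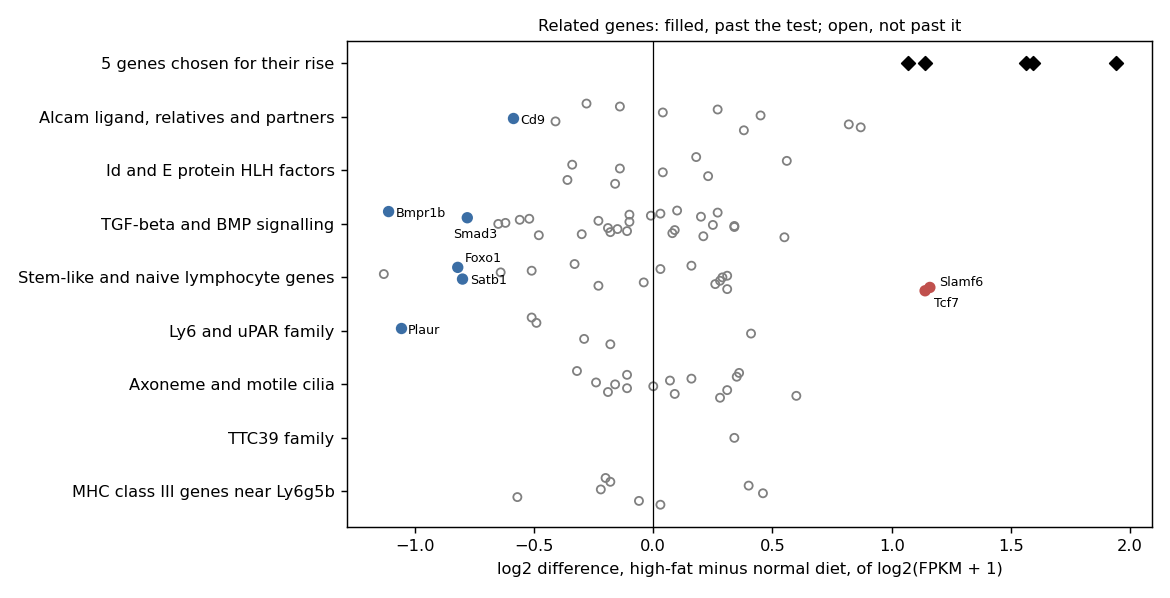
Difference of mean log2(FPKM + 1), high-fat minus normal diet (horizontal axis), for the 5 chosen genes (black diamonds) and for each tested gene of 8 lists (rows); filled circles passed the limma test at an adjusted p of 0.05, red higher and blue lower, and open circles did not. The 5 genes lie between 1.07 and 1.94, and among the lists only Tcf7 and Slamf6 are filled to the right of 0, the latter a gene that passed the filter only through its high-fat libraries.

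Neighbouring genes were compared to see how far along the chromosome the difference extended. The tested neighbours of Alcam, Cblb and Nfkbiz, had log2 differences of 0.29 and -0.10 (adjusted p 0.403 and 0.767), the latter turning to 0.12 under quantile normalization. Cblb, an E3 ubiquitin ligase that restrains lymphocyte activation, ends 40947 bases from Alcam, and Nfkbiz lies 3357300 bases away. The neighbours of Id3 were Rpl11 (0.15, adjusted p 0.644) and the cell cycle factor E2f2 (-0.06, adjusted p 0.943). E2f2 turned in sign without H4 or N4. Neither neighbour of either gene was called by limma with Benjamini-Hochberg adjustment.

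The surroundings of Ly6g5b are crowded. On the same strand, Csnk2b, the regulatory subunit of casein kinase 2 (chr17:35116196-35122053), ends 767 bases upstream of Ly6g5b, and the farther Ly6g5b start lies inside it. Csnk2b was at 83.65, 48.2, 78.65 and 71.9 FPKM in H1 to H4 and at 49.5, 58.6, 51.0 and 50.2 FPKM in N1 to N4. H2 was the only high-fat library below the normal-diet ones. The log2 difference of Csnk2b was 0.40 (SE 0.17, adjusted p 0.237). It was called without H2 (0.57, adjusted p 0.0335), without H2 and N2 (0.62, adjusted p 0.0235) and under quantile normalization (0.53, adjusted p 0.0313). Per 100 Csnk2b reads there were 37.55, 27.9, 39.2 and 35.6 Ly6g5b reads in H1 to H4 and 15.05, 7.96, 16.2 and 13.1 in N1 to N4. The ratio of the 2 genes was thus higher in every high-fat library, H2 included, which the choice of Ly6g5b for its rise favours. The protocol does not mark strand, and how reads of a transcript spanning both genes were assigned is not given in the sources used here. On the other side Abhd16a, a phosphatidylserine lipase, had means of 103 ± 11.9 FPKM on high-fat and 155 ± 34.3 FPKM on normal diet, and its difference of -0.57 (SE 0.17) had an adjusted p of 0.086. It was called with equal library medians (-0.56, adjusted p 0.0429) and without N3 (-0.70, adjusted p 0.0488). Of 8 tested MHC class III genes 0 were called (2.86% of all tested genes), with a median of -0.12. The absence of calls among 8 genes is not read as a result. Clic1 and Vars, the most abundant of them, had differences of -0.22 and 0.03 (adjusted p 0.539 and 0.95), both with signs that turned in other settings.

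Mns1 overlaps Tex9, a gene of testis-expressed transcripts on the opposite strand (chr9:72450394-72492212), by 2842 exon bases. Reads of the 2 genes there cannot be told apart without strand. The deposited values of Tex9 are below 0, as for 14605 genes whose length appears to have been set at -1, so it was read from its recovered reads scaled to library depth (RPM). It had 45.4, 35.5, 39.2 and 40.25 RPM in H1 to H4 and 30.15, 23.25, 34.7 and 31.3 in N1 to N4. The lowest high-fat library lay just above the highest normal-diet one. Means were 40.1 ± 4.09 and 29.8 ± 4.79 RPM (SD, n = 4 each), a ratio of 1.345, with an exact permutation p of 0.0286 (two-sided), the smallest that 4 against 4 libraries can give. Mns1 was at 57.8, 50.2, 45.4 and 49.8 RPM in H1 to H4 and at 17.7, 21.4, 20.5 and 24.96 in N1 to N4, a ratio of means of 2.40. Mns1 had 1.27, 1.41, 1.16 and 1.24 reads per Tex9 read in H1 to H4 and 0.587, 0.922, 0.592 and 0.798 in N1 to N4. The ratio of means was smaller for Tex9 than for Mns1, which the choice of Mns1 for its rise favours. Part of the reads of Tex9 may be those of Mns1, so its p does not test Tex9 alone. Its tested neighbours Zfp280d and Rfx7 had log2 differences of 0.15 (adjusted p 0.669) and 0.00 (adjusted p 0.996), and the sign for Rfx7 turned with the setting.

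Downstream of Ttc39c, Cabyr starts 1458 bases after its end on the same strand (chr18:12740322-12755260). Cabyr encodes a calcium-binding protein of the sperm tail. It was at 2.80, 2.89, 2.885 and 1.535 FPKM in H1 to H4 and at 0.680, 0.415, 1.30 and 0.990 FPKM in N1 to N4, from 7 to 51 reads. It was higher in all high-fat libraries, by 0.93 on the log2 scale (SE 0.24, adjusted p 0.0482, limma with Benjamini-Hochberg adjustment). Only N3 among the normal-diet libraries reached 1 FPKM. Cabyr thus met the filter through its high-fat libraries, and its call supports nothing. The call was lost in 11 of 16 settings, among them without each library except N3, with an adjusted p of up to 0.151. The library with the highest Ttc39c on high-fat diet, H4, had the lowest Cabyr of that diet. On the other side, 294098 bases away, Ankrd29 had a difference of -0.22 (adjusted p 0.664).

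In a window of 500 kb around each start, chosen after the values were seen, 1 gene was tested near Alcam, 19 near Id3, 37 near Ly6g5b, 7 near Mns1 and 9 near Ttc39c. The only genes called there were Cabyr and, near Ly6g5b, Lta (log2 difference 0.64, adjusted p 0.0324, limma), which encodes lymphotoxin alpha. The call for Lta was lost in 9 of 17 settings, among them without each library except H2 and N3 (up to 0.0965). The medians of the windows were 0.29, -0.09, -0.10, -0.003 and -0.21 in the same order.

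**Figure D3:**
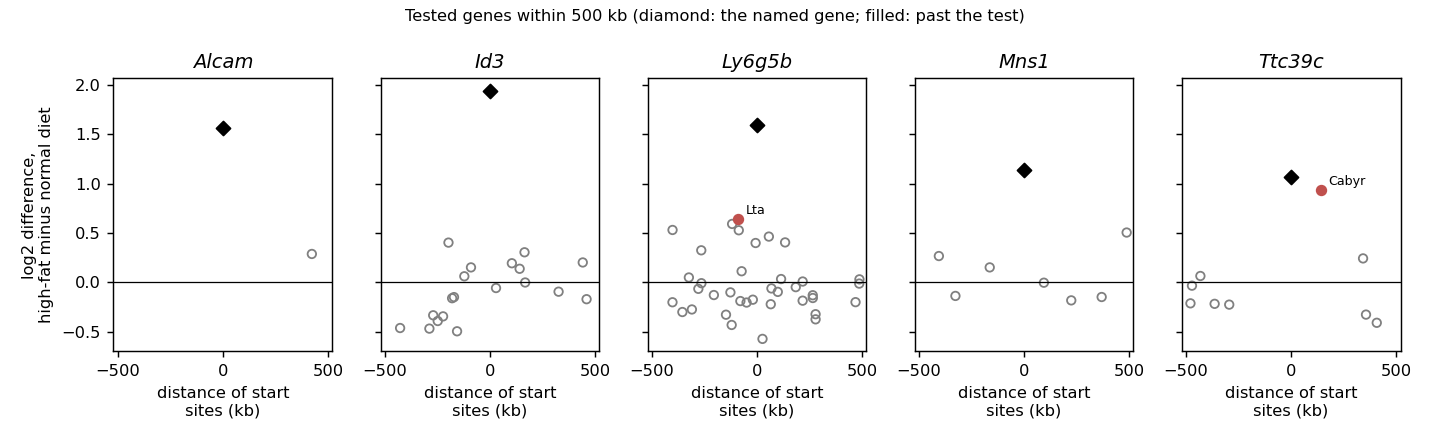
Difference of mean log2(FPKM + 1), high-fat minus normal diet (vertical axis), of each tested gene within 500 kb of the start of the 5 genes, against the distance between start sites in kb (horizontal axis); black diamonds are the 5 genes, filled circles passed the limma test and open circles did not. Each diamond lies above every neighbour in its panel, which the choice of the 5 genes for their rise favours. Lta (0.64) and Cabyr (0.93) are the only filled neighbours.

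Markers of other cells that a sort could hold were read in the same libraries, and their part in the differences of the 5 genes was not tested. T cells can express Alcam and Id3 as well. Of 13 T cell markers 11 were tested and 0 called, with a median log2 difference of 0.76. Their summed level was 867.8 to 1677 FPKM on high-fat and 829.8 to 1120 FPKM on normal diet, most of it from the T cell receptor constant segments Trbc1 and Trbc2. Cd3e was at 10.7, 7.33, 13.6 and 15.1 FPKM in H1 to H4 and at 3.62, 2.49, 2.89 and 11.6 FPKM in N1 to N4. Foxp3, the factor of regulatory T cells, was at 9.36, 5.35, 8.34 and 16.8 FPKM in H1 to H4 and at 1.81, 1.45, 3.30 and 11.5 FPKM in N1 to N4. Both were high in H4, as were Alcam, Id3 and Ttc39c, and among normal-diet libraries both were highest in N4. Cd3d, Cd4, Cd5, Cd6, Cd28, Trac, Ctla4 and Tigit also peaked in H4 and N4, but other markers of the lists did not. Trbc1 and Trbc2 were highest in H1 (740.2 and 468.0 FPKM), as was Ikzf2. On normal diet Cd3g, Lck and Trbc2 were highest in N2 (127.9, 56.1 and 285.1 FPKM). Tnfrsf18 was highest in H3 and N2. In N4, where Cd3e and Foxp3 were at the level of high-fat libraries, Id3, Alcam and Ttc39c were at 1.475, 6.96 and 7.79 FPKM. The choice of the genes set these below every high-fat library, so nothing is read from that. Alcam and Ttc39c had their highest normal-diet value in N4. Of 5 regulatory T cell markers 0 were called, with a median of 0.55 and sums of 639.4 to 885.6 FPKM on high-fat and 841.6 to 1249 FPKM on normal diet. Most of that sum is Tnfrsf18, which ILC2s also express (log2 difference -0.47, adjusted p 0.137). The other 4 had differences above 0: Ctla4 1.64, Foxp3 1.22, Tigit 0.55 and Ikzf2 0.19 (adjusted p 0.116, 0.302, 0.149 and 0.574).

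Endothelial cells also carry Alcam and Id3. Of 12 endothelial markers 4 were tested and 2 were higher on high-fat diet: Fabp4 (log2 difference 4.29, adjusted p 0.027) and Esam (1.67, adjusted p 0.0111). The call for Fabp4 was lost in 7 of 16 settings, namely without any 1 library but H2 (up to 0.0933). Of the normal-diet libraries only N3 reached 1 FPKM for Esam. Esam thus met the filter through its high-fat libraries, and its call supports nothing. Their sum was 154.9, 30.8, 108.4 and 116.5 FPKM in H1 to H4 and 16.75 to 23.0 FPKM in N1 to N4, of which Fabp4 gave 104.0, 9.68, 62.5 and 68.9 FPKM on high-fat diet. Fabp4 was most of the sum in H1, H3 and H4, while in H2 Pecam1 was larger (10.6 FPKM). In H1, H3 and H4 the sum is thus mainly a reading of 1 gene and is not taken as endothelial content. The endothelial cadherin Cdh5 was at 0.3335 to 0.416 FPKM on high-fat and 0.0241 to 0.315 FPKM on normal diet, under the filter. Tek, Kdr and Egfl7, also under the filter, had means of 0.932, 1.05 and 1.59 FPKM on high-fat diet. On normal diet their means were 0.111, 0.209 and 0.237 FPKM. None of the endothelial markers under the filter had a lower mean on high-fat diet. Alcam was at 12.75 and 12.9 FPKM in H1 and H2, where the endothelial sum was 154.9 and 30.8 FPKM, a difference mostly of Fabp4. Among the high-fat libraries Kdr and Cdh5 were highest in H2 (1.82 and 0.416 FPKM), while Esam, Pecam1 and Tek were lowest there. Kdr, Cdh5 and Tek were under the filter, and H2 had the fewest reads and the most genes at 1 FPKM or more. Their order in H2 is therefore not read. Id3 and Ly6g5b were lowest in H2 among the high-fat libraries, as the sum was.

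Macrophage and dendritic cell markers had 6 of 15 tested and 2 higher, the MHC class II genes H2-Aa (log2 difference 1.63, adjusted p 0.00735) and H2-Ab1 (1.53, adjusted p 0.0274; up to 0.0772 without H1, H4, N1 or N3), with a sum of 131.4 to 214.2 FPKM on high-fat and 60.9 to 112.7 FPKM on normal diet. The macrophage genes Adgre1, Csf1r and C1qa to C1qc were under the filter. Mast cell markers had 6 of 6 tested and 0 called, with a sum of 1606 to 7711 FPKM on high-fat and 3620 to 7754 FPKM on normal diet. B cell (4 of 7 tested), NK and ILC1 (2 of 8), ILC3 (1 of 5), fibroblast and mesothelial (2 of 11), adipocyte (2 of 7) and cycling cell markers (12 of 12) had 0 called each. Their summed levels were 102.2 to 246.8, 63.2 to 293.9, 4.05 to 5.12, 8.84 to 42.96, 4.57 to 8.30 and 174.0 to 199.5 FPKM on high-fat diet. On normal diet they were 115.3 to 368.7, 101.4 to 259.8, 2.95 to 6.58, 7.68 to 14.6, 3.215 to 5.60 and 174.7 to 231.2 FPKM. No list had a gene at 0 in all 8 libraries.

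**Figure D4:**
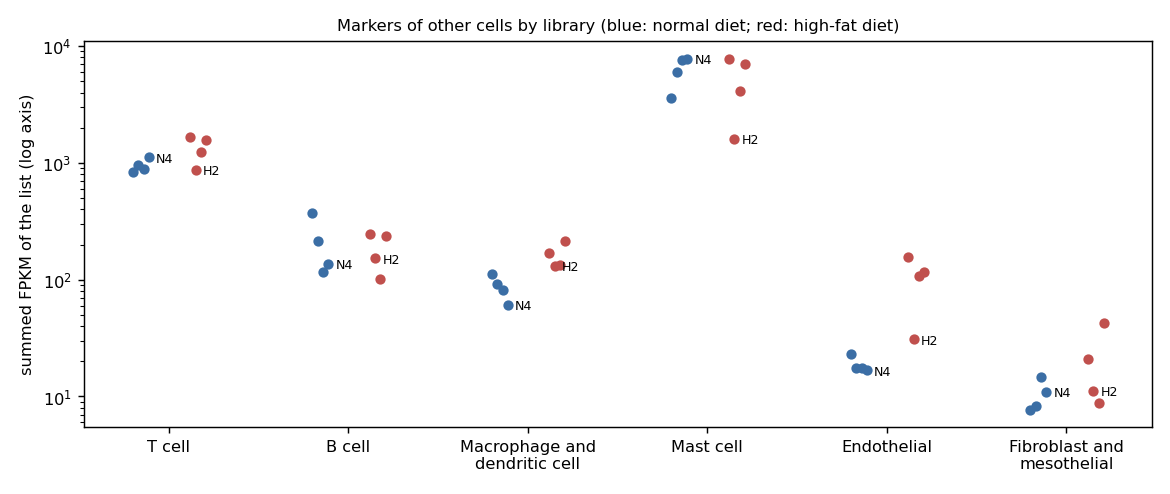
Summed FPKM of marker lists of other cell types in each library (vertical log axis) by list (horizontal axis), blue on normal and red on high-fat diet, with H2 and N4 named. The endothelial sum is above 100 in H1, H3 and H4, where most of it is Fabp4. It is 30.8 in H2 and at most 23.0 on normal diet, while T cell and mast cell sums overlap between the diets.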

How the data were processed

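ILC2 RNA was measured in 8 libraries, 4 of each diet. RNA was, per the labels' protocols, extracted with Trizol, amplified as full-length cDNA (SMART-Seq HT) and made into libraries with a transposase kit (TruePrep), which does not mark strand. HISAT2, Cufflinks and mm10 appear in the submitters' processing notes. Not given in the sources used here: versions and annotation. The authors deposited 1 FPKM value per gene and library for 39527 genes, per the file headers, and no counts. In 14605 genes the deposited values, here treated as other than plain FPKM, are at or below 0, as if divided by a length of -1; these were not tested. Within a library the value of 1 read also takes 10 sizes (0.863 to 1.18) that repeat down the rows and differ between libraries. With this factor known, values of 100% of 24107 genes above 0 became whole reads (relative tolerance 1e-06), from which depths and counting intervals come. The smallest length of at least 20 bases that gave whole reads was taken, so reads of a gene are known only up to a whole multiple. That length is little constrained for genes with values in few libraries. It was 4125 for Alcam, 952 for Id3 and 1804 for Mns1, against 7121, 1791 and 5363 exon bases. Counting intervals and ratios of reads between genes rest on this choice.

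Genes that reached 1 FPKM in 4 or more of the 8 libraries were taken as log2(FPKM + 1) and tested with limma 3.58.1 in R 4.3.3 (diet as the only term, eBayes trend and robust, two-sided, Benjamini-Hochberg at 0.05 over all 11483). The exact permutation test used SciPy 1.17.1. The 5 genes, the lists and the alternatives were chosen with earlier results of these data known. Named genes are the 5; up to 3 called genes of each list by size, or the 2 most abundant where none was called; all tested Id, HLH and TTC39 genes with Ly6a, Ly6e and Ly6g5c; the nearest tested gene on either side; and the genes most alike within diets. A gene that this rule takes is not reported here. Other genes named (Satb1, Tex9, Lta, further list members and single markers) were chosen after their values were seen. Of the genes most alike, the alternatives were run for the called one, Klhl7. The test was tested on simulated data. Alternatives were quantile normalization, equal library medians, a pseudocount of 0.1, a stricter filter and none, plain eBayes, the row factor divided out, the replicate number as a block, each library left out, and both libraries numbered 2 left out. Positions come from GENCODE M21, promoter sequences from RefSeq (GRCm38.p6).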

Additional observations from a re-analysis of the deposited data

Results flagged for a closer look

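Among the groups of 4 libraries of the 5 genes and the genes named beside them, 6 of 94 had 1 library far from the others (Dixon's test at its 95% critical value); chance flags about 1 in 20. None of the 5 genes was among them. N2 was the library set apart in 4 of the 6: the highest normal-diet library for Plaur (917.6 FPKM, the others 638.5 to 683.1), Clic1 (730.2 FPKM, the others 487.6 to 521.3), Ly6e (4389 FPKM, the others 2930 to 3176) and Csnk2b (58.6 FPKM, the others 49.5 to 51.0). In reads scaled to depth, N2 was instead the lowest normal-diet library for Csnk2b (36.9 RPM, against 37.1 to 44.4). For Vars, H2 was the lowest high-fat library (91.6 FPKM, the others 144.0 to 152.3). For Cabyr, the gene downstream of Ttc39c, H4 was the lowest high-fat library (1.535 FPKM, the others 2.80 to 2.89).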

How the results depend on the processing

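The log2 differences of the 5 genes, whose sign the choice of the genes fixes, ranged over the settings as follows: Alcam 1.39 to 1.745, Id3 1.67 to 2.52, Ly6g5b 1.41 to 1.82, Mns1 1.05 to 1.22 and Ttc39c 0.87 to 1.22. The highest value of Id3 (2.52) came with a pseudocount of 0.1; with the filter in all 8 libraries Id3 was not tested. Called genes (328; 112 higher, 216 lower) came to 130 (41 and 89) with no filter on low values and 571 (185 and 386) with the row factor divided out. There were 226 higher under quantile normalization, 173 higher with equal medians and 242 higher without H2 and N2, and 132 lower with plain eBayes. Leaving out 1 library gave 129 to 536 calls, 40 to 255 higher and 84 to 281 lower. With the replicate number as a block 191 were called, 113 of them lower; same-numbered libraries of the diets correlated at -0.071, -0.255, -0.072 and 0.078 in their deviations, so the numbers do not pair them. The causes of these changes were not tested. The stricter filter gave no value for Bmpr1b, Cabyr, E2f2, Esam, Fabp4 or Slamf6.

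Of 708 values of 42 other genes, 589 kept their direction and side of the threshold, 89 lost and 7 gained the call, and 23 turned in sign, 0 of them past the threshold. Signs turned for Bhlhe40 (-0.012, -0.007 and -0.056 without H3, H4 and N3; -0.056 to 0.129 over left-out libraries), Tcf12 (0.04 without H2 and N2), Dnaaf2 (-0.009 and -0.026 without H3 and N1; -0.026 to 0.238) and Clic1 (0.001 without H2 and N2). They turned for Vars (-0.035 with the row factor divided out, and -0.036, -0.022, -0.01, -0.008 and -0.05 without H1, H3, H4, N1 and N3; up to 0.206), Nfkbiz (0.12 under quantile normalization) and E2f2 (0.077 and 0.103 without H4 and N4; -0.175 to 0.103). Rfx7 turned to 0.005 with equal medians, 0.002 with a pseudocount of 0.1, 0.034 with the row factor divided out, 0.039, 0.09 and 0.04 without H3, N2 and N3 (-0.087 to 0.09 over left-out libraries), and 0.081 without H2 and N2. Counting limits Id3 (8 reads in N2) and Cabyr (7 reads in N2) most.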
